A study of Caenorhabditis elegans with 2 samples.

Results

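The energy-producing machinery of mitochondria is built largely from proteins encoded in the nucleus. Electrons from NADH pass through complex I (nuo genes), complex III (ucr genes and cyc-1), cytochrome c (cyc-2.1 and cyc-2.2) and complex IV, the cytochrome c oxidase (cox genes), and the ATP synthase (atp genes) uses the resulting proton gradient to make ATP. The mitoribosome (mrpl genes mostly for the large subunit and mrps genes mostly for the small subunit) translates the few respiratory subunits that the mitochondrial genome still encodes. Occupancy by the zinc-finger transcription factor SNAI-1, a Snail family protein, was examined at the promoters of 104 such genes of the nematode Caenorhabditis elegans. The 104 genes were all protein-coding genes on nuclear chromosomes, out of 19973, whose symbols start with nuo, cox, atp, ucr, cyc, mrpl or mrps. They comprised 34 genes of the respiratory chain and its assembly and 70 genes of the mitoribosome. The symbols alone decided which genes belong, and the set was taken up with earlier results of these data known. A symbol can differ from the product name, as at mrps-18C, whose product is named large ribosomal subunit protein uL3m.

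ChIP-seq, the sequencing of DNA recovered with a chromatin-bound protein, was done with an anti-GFP antibody on whole late embryos of mixed sex, collected 5 h after synchronization by egg bleaching. The strain, OP698, has the genotype unc-119(tm4063) III; wgIs698, in which the transgene wgIs698 supplies SNAI-1 (K02D7.2) with a C-terminal GFP tag, named as eGFP in 1 label and GFP-FLAG in another. Both samples carry the same alleles, and the labels describe them as 2 biological replicates of 1 group. There was no second condition and thus no test between groups. The tagged protein comes from a transgene, and chromatin of all embryonic cells was pooled, so that strong occupancy in few cells and weak occupancy in many cannot be told apart.

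The authors deposited regions, each with a signal value and a summit, and no read counts, so the depth of each library is unknown. The pooled list and the list of each replicate held 30000 candidate regions each, peaks and background together. The 495 regions that passed the authors' reproducibility filter (irreproducible discovery rate, IDR) were the 495 strongest of the pooled list and had signals of 114.7 or more. Signal has no stated scale and compares regions within 1 list. A gene was scored by its strongest region whose summit fell in its promoter window, which began 1000 bp before a transcript start and ended 200 bp after it. Coordinates are on ce11. A signal is a single value of a list and has no error of its own, so for the genes described most closely the ranks in the 2 replicates are given too.

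Of the 104 genes, the highest signals were at cox-5A, cox-6A and cox-5B, which encode subunits of complex IV. An IDR peak lay in the promoter window of 6 of the 104 genes, namely cox-5A, cox-6A, cox-5B, atp-1, mrpl-12 and cyc-1. This is 5.77% (exact 95% binomial interval 2.15 to 12.1%, which treats genes as independent), where 1.55% of all protein-coding genes had such a peak. Of the 34 respiratory chain genes 5 had an IDR peak (14.7%, 4.95 to 31.1%), and of the 70 mitoribosome genes 1 had one (1.43%, 0.0362 to 7.70%). These shares are descriptions. No test of the set was made, and the difference between the respiratory chain and the mitoribosome genes was not tested.

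The sequences at 3 summits are shown because they carry the strongest respiratory and mitoribosome regions described below (cox-5A and mrpl-12) and, for atp-5, 3 overlapping hexamers of those searched, a number that mrpl-15, nuo-2 and mrpl-2 also reached. Each line gives the plus strand at the pooled summit with 50 bases to either side, from the RefSeq sequence of WBcel235. The windows are chrIII:12905110-12905210 for cox-5A, chrIII:10707155-10707255 for mrpl-12 and chrV:11124061-11124161 for atp-5. Capitals mark hexamers of the searched set or their reverse complements.
cox-5A: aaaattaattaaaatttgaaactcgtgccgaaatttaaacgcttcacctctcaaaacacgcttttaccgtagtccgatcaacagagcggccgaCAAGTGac
mrpl-12: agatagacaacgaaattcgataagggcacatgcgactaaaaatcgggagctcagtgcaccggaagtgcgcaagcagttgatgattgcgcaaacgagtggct
atp-5: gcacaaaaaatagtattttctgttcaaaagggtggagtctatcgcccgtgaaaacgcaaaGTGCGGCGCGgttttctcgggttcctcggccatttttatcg

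Among the cytochrome c oxidase genes, 13 of 15 had a candidate region in their promoter window and 3 had an IDR peak. The region at cox-5A, which encodes subunit 5A of the oxidase, was the strongest of all 104 genes. It lay on the right arm of chromosome III, from 12904932 to 12905387. The region had its summit in intergenic sequence at -331 bp from the start of cox-5A (negative positions are upstream). Its pooled signal was 314.9 at rank 48, and it ranked 30 in replicate 1 (signal 188.4) and 71 in replicate 2 (signal 128.3). No other protein-coding gene had a promoter window over this summit, and no tRNA, snoRNA or snRNA gene lay within 100 bp of it. The libraries both placed it among their strongest regions.

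The region assigned to cox-6A, the gene for subunit 6A, had its summit at an RNA gene. It spanned 5080585 to 5081040 on chromosome III, with a pooled signal of 183.9 at rank 171 and ranks of 171 and 193 in replicates 1 and 2. The summit was intergenic, at -911 bp from the start of cox-6A, and inside the snRNA gene F54D8.7. The central 61 bases of that gene occur at 19 places in the genome, so a read that lies wholly within them has no unique position, and how such reads were treated is not given in the sources used here. In a narrower window, from 500 bp upstream to 100 bp downstream of a start, the strongest region at cox-6A had a signal of 40.2.

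The third of these, cox-5B, encodes another nuclear subunit of the oxidase. Its region on chromosome I (9788507 to 9788962) had its summit 10 bp downstream of the annotated start, in an exon of cox-5B outside the coding sequence. The pooled signal was 156.2 at rank 247, and the ranks in the replicates were 260 and 254. The remaining cox genes had lower signals. The next was cox-6C, a small structural subunit, with a signal of 74.7 at rank 2456 and ranks of 6405 and 5680 in replicates 1 and 2. The subunit genes cox-6B, cox-7C and cox-4 had 62.5, 47.3 and 42.9. The gene cox-10, for the farnesyltransferase that modifies heme during oxidase assembly, had 63.7 and ranked 2740 and 16373. Genes for other assembly factors had signals of 47.8 (cox-17, a copper chaperone), 46.5 (cox-11), 46.1 (cox-18), 41.1 (cox-14) and 37.4 (cox-16), and cox-15 and cox-19 had no candidate region in the pooled list.

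All 5 atp genes had a candidate region, and 4 of them ranked 1175 or better. The region at atp-1, for subunit alpha of the ATP synthase, was an IDR peak on chromosome I (12652066 to 12652521) with a signal of 127.4 at rank 377. Its ranks were 486 in replicate 1 and 362 in replicate 2, inside the 495 strongest of each. The summit lay 17 bp downstream of the start, in a noncoding exon stretch of atp-1, and the promoter window of mcrs-1 also held it. The genes for subunit d (atp-5), coupling factor 6 (atp-4) and subunit beta (atp-2) followed, with signals of 94.1, 89.9 and 89.5 at ranks 972, 1161 and 1175. The 2 libraries ranked these 3 genes differently. The gene atp-5 ranked 3502 in replicate 1 and 570 in replicate 2, atp-2 ranked 3793 and 598, and atp-4 ranked 725 and 4995. The last, atp-3, encodes the oligomycin sensitivity conferral protein and had a signal of 53.2 at rank 8953, with ranks of 18905 and 10470. Each of the 5 regions was shared with at least 1 neighbouring gene, so that which gene it belongs to cannot be told here.

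In complex III and cytochrome c, only cyc-1, the gene for cytochrome c1, had an IDR peak within the window. It lay on chromosome I (8024453 to 8024908), at -259 bp from the start, with a signal of 115.2 at rank 488, at the edge of the IDR list. In each replicate alone it fell outside the 495 strongest, at ranks 592 and 511. Among the ucr genes, pooled signals were 60.6 at ucr-2.2, 51.1 at ucr-1 and 49.5 at ucr-2.1, ucr-11 had rank 11051, and ucr-2.3 had no candidate region. The libraries did not keep this order. The gene ucr-2.2 ranked 23676 in replicate 1 and 2297 in replicate 2, and ucr-1 ranked 9953 and 14951. The cytochrome c gene cyc-2.1 had 42.2 and ranked 18561 and 1092, and cyc-2.2 had no region. At cyc-2.1 the ranked summits lay at 72 bp from the nearest start in replicate 1 and at -174 bp in replicate 2. A candidate region was found at 2 of the 6 nuo genes, for complex I (exact 95% interval 4.33 to 77.7%), and at 20 of 29 complex I genes with other symbols (69.0%). Of the nuo genes, nuo-2, for an iron-sulfur protein of the complex, had a signal of 69.8 at rank 3229 (17204 and 2147 in the replicates) and nuo-3 had 38.0 at rank 22628, and nuo-1, nuo-4, nuo-5 and nuo-6 had no candidate region.

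**Figure D1:**
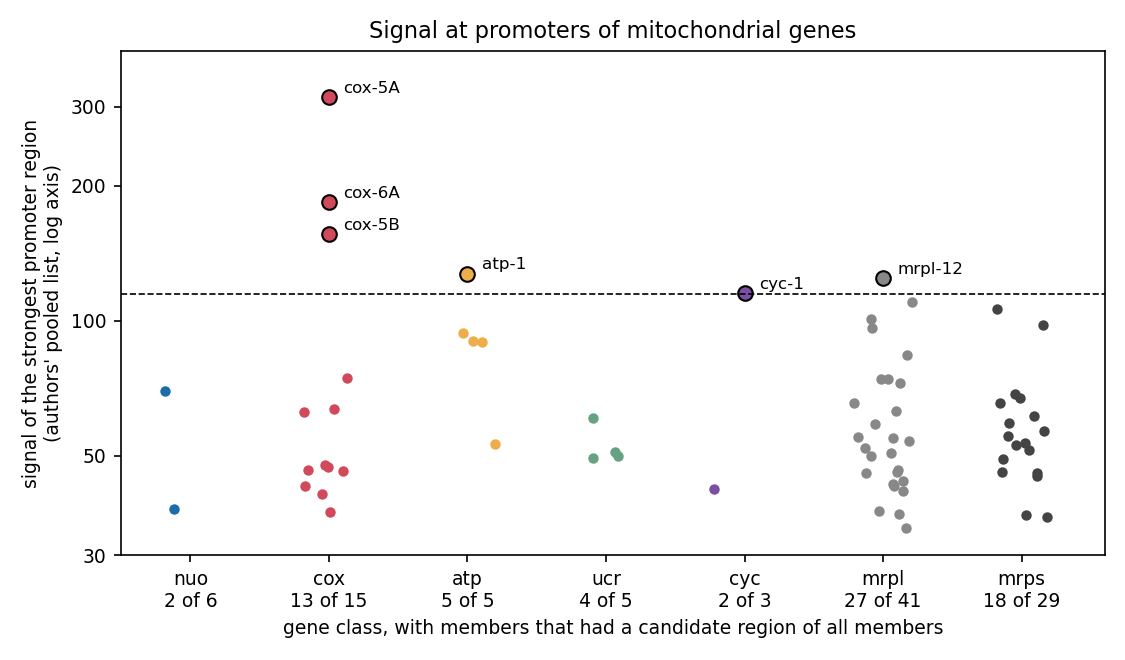
Signal of the strongest promoter region (authors' pooled list, log axis) for each gene, by gene class, with the number of genes that had a candidate region below each class. The dashed line is the lowest signal of the IDR list, 114.7, and outlined points are the 6 genes with an IDR peak, of which 3 are cox genes.

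Among the 70 mitoribosome genes, 45 had a candidate region (27 of 41 mrpl and 18 of 29 mrps genes), with signals from 34.5 to 124.5. Their median, 53.9, lay beside 56.9 for the respiratory chain genes with a candidate region, and the intervals of the medians overlapped (49.2 to 61.2 and 47.3 to 89.5). The highest was mrpl-12, whose product forms the flexible stalk of the large subunit. Its IDR peak lay on chromosome III (10706977 to 10707432), at -556 bp from the start, with a signal of 124.5 at rank 405. Replicate 1 placed it at rank 1125 and replicate 2 at rank 264, so it was among the 495 strongest in replicate 2 alone. The genes Y39A1A.21 and Y39A1A.22 shared this region, and mrpl-12 was not the gene with the nearest start. With each region given to the nearest start alone, the strongest region at mrpl-12 had a signal of 66.9.

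Below the IDR limit, the next genes were mrpl-50 and mrps-34, which encode proteins of the large and the small subunit. The region at mrpl-50 had a signal of 110.4 at rank 566, its summit lay 49 bp downstream of the start in a coding exon of mrpl-50, and it ranked 865 and 822 in the replicates. The region at mrps-34 had 106.2 at rank 632 and ranked 840 and 1677, and cisd-3.1 shared it.

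Further mitoribosome genes were mrpl-39 (rank 748), mrps-10 (97.9, rank 831), mrpl-15 (96.4, rank 880) and mrpl-45 (83.9, rank 1527, with ranks of 1747 and 1093). For the first 3 of these replicate 2 gave the better rank. Replicate 1 ranked them 3177, 1894 and 3374, and replicate 2 ranked them 786, 284 and 536. At mrps-10 the ranked summits lay at -489 bp in replicate 1 and -12 bp in replicate 2. Its 2 ranks therefore belong to different summits. The gene mrps-17 had a signal of 68.7 and ranked 22681 in replicate 1 and 1467 in replicate 2.

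The gene mrps-28 shows how the window can decide a rank. Its strongest pooled region in the window had a signal of 59.2 at rank 6127, and it ranked 12368 in replicate 1 and 18 in replicate 2. The rank of 18 belongs to a region at the snoRNA gene Y43F8C.22, whose summit lay at -985 bp from mrps-28 in replicate 2. In the pooled list and in replicate 1 the summit of that region lay at -1021 and -1018 bp, outside the window, and its ranks were 12 and 14. Both libraries held the region near the top of their lists, and the summit fell in the window in replicate 2 alone.

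**Figure D2:**
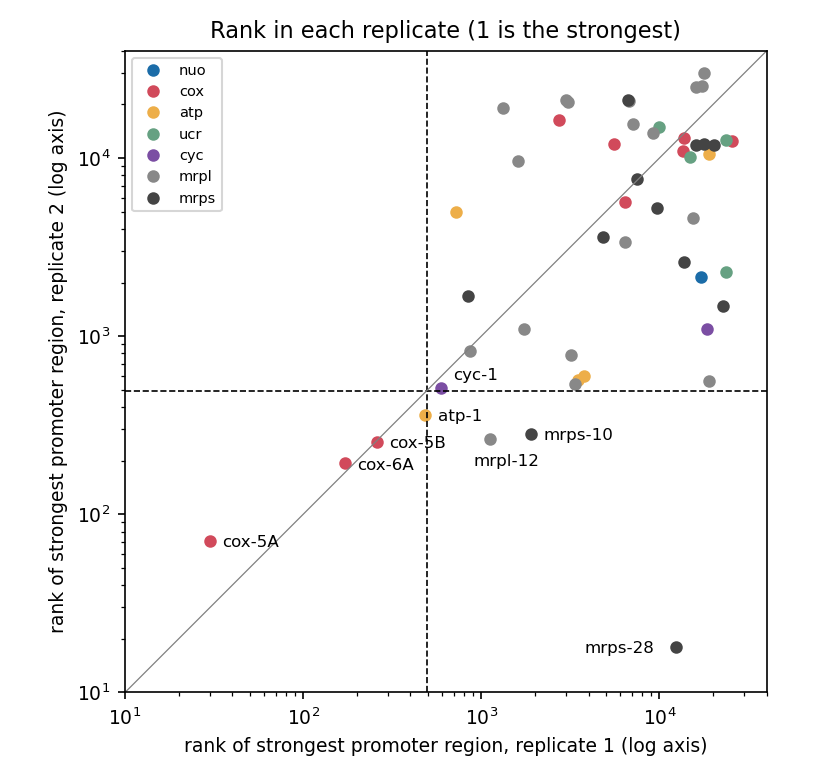
Rank of the strongest promoter region in replicate 1 (x axis) and replicate 2 (y axis), log axes, for the 51 genes with a pooled candidate region and a region in both replicates. Dashed lines mark rank 495 and the grey line equal ranks. The genes cox-5A, cox-6A, cox-5B and atp-1 lie inside rank 495 in both libraries, and mrps-28 ranked 12368 and 18.

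Taking each library by itself, 4 genes (cox-5A, cox-6A, cox-5B and atp-1) were among the 495 strongest regions of both, which is 3.85% of the 104 genes against 1.00% of all protein-coding genes. Replicate 1 had these 4 and no others. Replicate 2 also had mrpl-12, mrps-10 and mrps-28, the last 2 through summits other than those ranked in replicate 1. Of the 71 genes with a pooled candidate region, 51 had a region in the window in both replicates (71.8%, against 58.8% over all protein-coding genes with a pooled candidate region), 9 in replicate 1 alone, 7 in replicate 2 alone and 4 in neither. These counts do not require the same region. The strongest replicate region overlapped the pooled one at 57 of 60 genes in replicate 1 and 53 of 58 in replicate 2. Over all protein-coding genes it did at 5373 of 6053 and 5132 of 5857. Among the 51, the rank was better in replicate 2 for 32 (62.7%), and over all protein-coding genes with both it was better in replicate 2 for 51.7%.

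Weaker candidate regions were also frequent. In all, 71 of the 104 genes had a candidate summit in the window (68.3%, 58.4 to 77.1%), compared with 38.4% of all protein-coding genes. These 71 had 71 different strongest regions. Most were weakly supported, because 9 of the 71 had a −log10 q of 1.3 or more. This count was not made over all protein-coding genes, so it has no share to stand beside. The gene at the median signal, mrpl-49, had a −log10 q of 0.153. The lists hold peaks and background together, so a candidate summit alone does not show occupancy. Their median signal was 53.9 (quartiles 46.0 and 73.5), and over all 7662 protein-coding genes with a candidate summit it was 49.2 (quartiles 40.3 and 63.1). With the rank limit set at 2000, 15 of the 104 genes were reached (14.4%) and 4.89% of all protein-coding genes. Among genes that had any candidate summit, 8.45% of this set and 4.05% of all such genes had an IDR peak. The 78 genes for cytoplasmic ribosomal proteins (symbols starting rpl or rps) had a candidate summit in 76.9% and an IDR peak in 14.1%, and the difference from the mitochondrial genes was not tested.

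**Figure D3:**
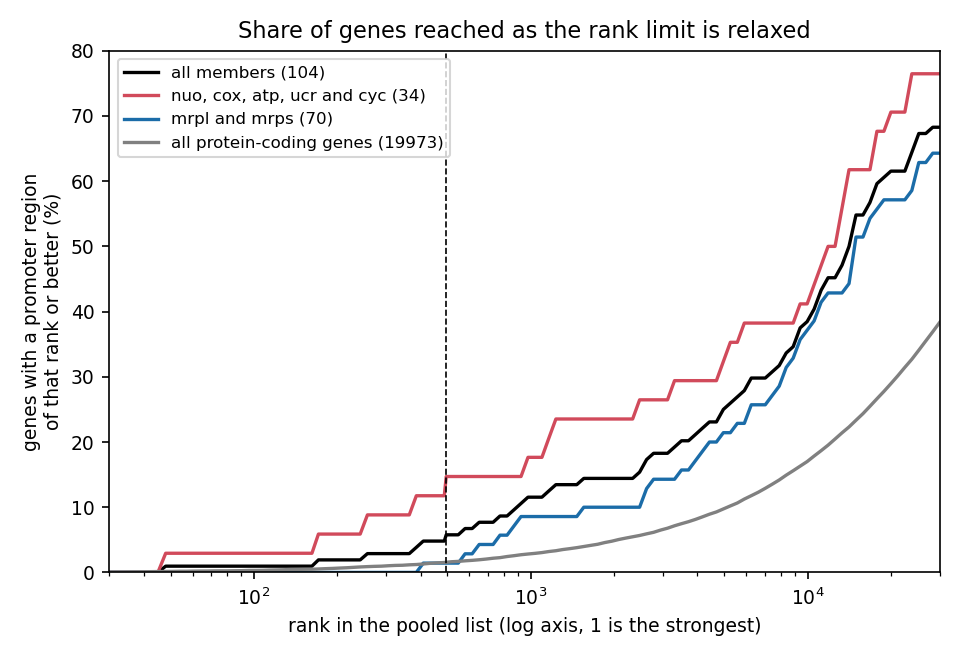
Percent of genes with a promoter region at or above a given rank of the pooled list (x axis, log). Lines are all 104 genes, the 34 respiratory chain genes, the 70 mitoribosome genes and all 19973 protein-coding genes, and the dashed line is rank 495. At that rank the lines stand at 5.77, 14.7, 1.43 and 1.55%, and at the end of the list at 68.3, 76.5, 64.3 and 38.4%.

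Most summits lay upstream of the starts, and 12 of the 71 lay downstream. The median position over the 71 genes was 191 bp upstream (that is, -191 bp, quartiles -400 and -81 bp), and 31 summits (43.7%) lay within 250 bp upstream of the nearest start. Over all protein-coding genes with a candidate summit the median was -297 bp and this share was 26.7%. The share was 48.9% for mitoribosome genes (22 of 45) and 34.6% for respiratory chain genes (9 of 26), and this difference was not tested. The 2 IDR peaks at cox-5B and atp-1 had summits 10 and 17 bp downstream of the start, and those at cox-6A and mrpl-12 lay more than 500 bp upstream. Those at cox-5A and cyc-1 lay at -331 and -259 bp, so no IDR peak had its summit within 250 bp upstream. Of the 71 regions, 38 (53.5%) also fell in the promoter window of another protein-coding gene, as did 25.7% over all genes with a candidate summit. Of the 6 IDR peaks, 2 were shared in this way, 1 lay at an snRNA gene, and 3 (cox-5A, cox-5B and cyc-1) were neither. The part of shared promoters in the share of genes with a region was not tested.

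**Figure D4:**
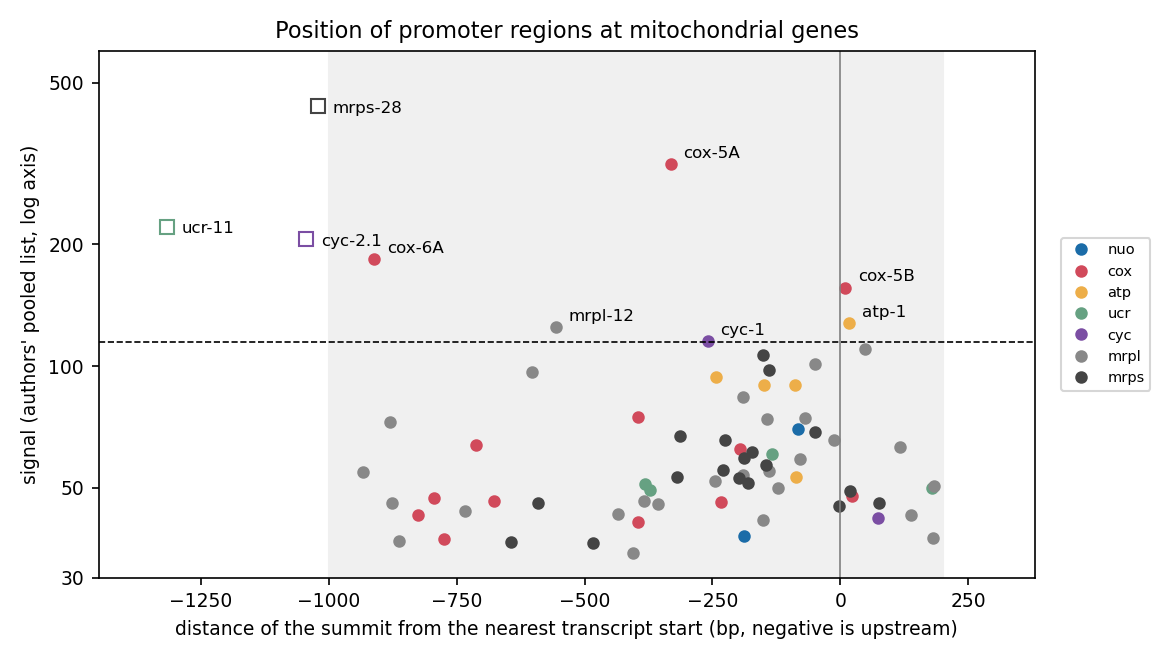
Distance of the summit from the nearest transcript start (x axis, bp, negative is upstream) and signal of the strongest promoter region (y axis, log), by gene class. The shaded band is the promoter window, the dashed line the lowest IDR signal of 114.7, and open squares are regions outside the window at -1021 bp (mrps-28), -1044 bp (cyc-2.1) and -1317 bp (ucr-11).

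Median GC content in these windows, 50 bases to either side of the summit, was 35.6% for the 71 genes and 38.6% over all genes with a candidate summit. The hexamer CAGGTG, an E-box that Snail proteins of other animals bind, was present on either strand in 1 of the 71 windows (1.41%), that of mrps-26, and in 2.87% of the 9240 candidate regions in promoter windows. The E-box CACTTG (reverse complement CAAGTG) was in 6 (8.45%, against 4.31% of the 9240). The windows of cox-5A and atp-1 were among these 6, with those of ucr-1, cox-6B, mrpl-21 and mrpl-22. In cox-5A it stands near the right end of the sequence printed above.

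Other hexamers, taken from earlier results of these data, were counted in the same way, and some overlap each other. In all these counts the 71 windows are each gene's strongest region, whereas the 9240 include weaker regions of the same promoters. CGCGCC was in 7 windows (9.86%, against 3.44%), among them those of cyc-1 and atp-5, and ACGCGC in 6 (8.45%, against 3.71%), among them cox-5B and cyc-1. CCGCAC was in 4 (5.63%, against 2.99%), GCCGCA in 2 (2.82%, against 3.34%), ACCACT in 3 (4.23%, against 3.55%) and GTTCGA, the core of the tRNA B box, in 2 (2.82%, against 3.58%). In the atp-5 window the hexamers CGCGCC and CCGCAC, with GCCGCA between them, overlap and form the 10-base run GTGCGGCGCG (reverse complement CGCGCCGCAC). This run was in 36 of all 30000 candidate windows (0.120%) and in 5 of the 495 strongest, and in no other of the 71 windows. The window of mrpl-12 held none of the 8 hexamers. A match describes the sequence and does not show a bound site.

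Mitochondrial genes with other symbols also had IDR peaks. A list of 114 such genes, picked by symbol in groups by function, had 72 with a candidate summit (63.2%) and 8 with an IDR peak (7.02%). Not every product name on it states a mitochondrial place. An example is fars-3 (phenylalanine--tRNA ligase beta subunit), which is among the 72. Over all protein-coding genes these shares were 38.4% and 1.55%, and the difference was not tested. The strongest were ears-2, the mitochondrial glutamyl-tRNA synthetase (signal 505.8, ranks 8 and 9 in replicates 1 and 2, shared with uncp-18), idhg-1, a subunit of the NAD-dependent isocitrate dehydrogenase of the citric acid cycle (303.9, ranks 56 and 52, shared with mlcd-1), and ndua-2, a complex I subunit (270.0, ranks 55 and 117, shared with dnj-29 and fld-1). The other IDR peaks lay at hsp-60, the mitochondrial chaperonin (243.9, ranks 62 and 167, shared with Y22D7AL.10), mtss-1, the mitochondrial single-stranded DNA-binding protein (211.9, ranks 238 and 83, shared with mig-22), dlst-1, a 2-oxoglutarate dehydrogenase component (150.1, ranks 246 and 408), ant-1.1, an ADP/ATP translocase (121.8, ranks 507 and 555, shared with T27E9.2 and abcf-2), and suca-1, a succinyl-CoA ligase subunit (120.8, ranks 350 and 618). By group, IDR peaks were at 3 of 18 citric acid cycle genes, 2 of 20 genes of mitochondrial gene expression, 1 of 19 import and chaperone genes, 1 of 12 ATP synthase and carrier genes, 1 of 29 further complex I genes, and none of 5 complex II, 9 complex III and ubiquinone and 2 cytochrome assembly genes. The next in signal were tomm-20, an import receptor (112.5, ranks 527 and 851), mppb-1, a processing peptidase subunit (110.0, ranks 671 and 1495), and nduf-9 of complex I (101.4, ranks 681 and 4025).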

How the data were processed

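The authors deposited narrowPeak lists, and the 4 lists on ce11 (pooled, IDR, replicate 1 and replicate 2) were used. The signal column holds the peak caller's value per region as deposited, on a scale that is not stated. The −log10 q column is also as deposited by the authors. Per the deposited manifests, each list came from the alignments and a control alignment. Not given in the sources used here are the aligner, the caller and its versions, and the threshold of the IDR step. Control reads were not analysed here. The ce10 lists were not used.

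Genes and transcript starts came from Ensembl release 115 of WBcel235, which has ce11 coordinates, and sequence and product names from RefSeq. A summit is the region start plus the summit column, a distance in bases as the authors deposited it. Named genes were those with an IDR summit, the 10 next in pooled signal, the 3 highest of each of the 7 classes and any among the 495 strongest of a replicate, and others are named as counts of few or after their values were seen. From the list of other mitochondrial genes, those at IDR peaks and the 3 next were named. The members and lists, including the hexamers, were chosen with earlier results of these data known. Intervals are exact 95% binomial intervals and cover neither biological variation nor shared regions. Counts are set beside the same counts over all protein-coding genes, with no test. The assignment of summits was tested on simulated data. Python 3.11.15, numpy 2.4.6 and scipy 1.17.1 were used. The sequence at the cox-6A summit is not reported here.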

Additional observations from a re-analysis of the deposited data

How the results depend on the processing

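No paired analysis was possible because there is 1 group. The count of 6 genes with an IDR peak, the count of 71 with a candidate region, the count of 4 in both replicates and the median signal of 53.9 were each recomputed, with the count over all protein-coding genes given in brackets (310, 7662 and 200 as reported). With a window from 2000 bp upstream to 500 bp downstream, 10 genes had an IDR peak (431), all 6 with cyc-2.1, mrpl-48, mrps-28 and ucr-11 added, and 7 were in both replicates (272). The narrower window kept 4 of the 6 (217), without cox-6A and mrpl-12, and assignment to the nearest start kept 5 (226), without mrpl-12. The count with a candidate region was 87 (10722) in the wider window and 60 (5026) in the narrower one. It was 54 (6840) with the nearest start alone. Taking N as 495, the N/2 strongest regions gave 3 genes (171), and 2 in both replicates (118), and the 2N strongest gave 12 (567). Without 1 replicate, the count at the 495 strongest ran from 4 to 7 (302 to 304), the count with a candidate region from 65 to 68 (7681 to 7786), and the median signal from 27.7 to 31.3 (26.2 to 29.7), on the scale of each replicate's own list. Without genes whose region was shared with a gene outside the set, 33 of 66 genes had a candidate region and 4 an IDR peak. This exclusion could remove only genes that had a region. It was not repeated over all protein-coding genes, so these counts have no share to stand beside. A −log10 q of at least 2 left 2 genes (190 of all protein-coding genes). Leaving out the gene at an snRNA gene (cox-6A), or the genes on the right arm of chromosome III (cox-5A and mrps-10), gave 5 genes with an IDR peak. The gene with an IDR peak that the arm exclusion removed was cox-5A, the strongest of the set. Neither exclusion was repeated over all protein-coding genes. For the named genes, another region became the strongest in 8 of 93 recomputations with other windows or assignments. The 93 leave out atp-5, mrps-28 and ucr-1 under the nearest start, where no region remained to them. With 1 replicate left out, 5 of 47 ranks crossed 495, and others changed several-fold on the same side of it, as at mrps-17 (3463 against 22681 and 1467). The 47 leave out nuo-3 in replicate 2, where it had no region. The causes were not tested. Unknown depth and a fixed list length of 30000 limit what the absence of a region shows.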

Other observations

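The neighbours of genes with and without a pooled candidate region are given here as counts, with no test. A gene that overlaps the start is counted as an upstream neighbour. The first count is of another protein-coding gene on the same strand that ends within 500 bp upstream or overlaps the start. Close spacing on the same strand is an arrangement found in operons. It was seen at 21 of the 33 genes without a region (63.6%) and at 21 of the 71 with one (29.6%). Over all protein-coding genes it was 2585 of 12308 without and 1516 of 7660 with a region. The opposite arrangement, an upstream neighbour on the other strand, was found at 11 of the 33 (33.3%) and 43 of the 71 (60.6%), and over all protein-coding genes at 44.5% without and 49.0% with a region. Operons are not annotated in the files used, and transcription from an upstream gene's promoter was not measured. Of the 33 genes, 21 had no region in either replicate's list, 7 had a region in replicate 2 alone, 2 in replicate 1 alone and 3 in both.

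Some strong regions lay just outside the promoter windows of genes in the set. The region at -1044 bp from cyc-2.1 (signal 205.4, rank 135, with ranks of 167 and 111 in replicates 1 and 2) is in the promoter windows of rpl-20 and Y17G9B.5. The region at -1317 bp from ucr-11 (signal 220.9, rank 110, with ranks of 87 and 165) is in those of dad-1 and tre-1. The region at the snoRNA gene near mrps-28 (signal 437.6, rank 12) was in no protein-coding promoter window of the pooled list.

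By chromosome, III carried 31 of the 104 genes, of which 26 had a candidate region and 3 an IDR peak, and I carried 25, with 18 and 3. Over all genes, III had 85 of 2640 with an IDR peak and I had 56 of 2878. Candidate regions over all genes were not counted by chromosome. None of the genes on II, IV, V and X had an IDR peak, where over all genes 47 of 3449, 42 of 3281, 52 of 4994 and 28 of 2731 did. The X chromosome held 2 of the 104 genes, ucr-2.1 and ucr-2.2, both with a candidate region.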
